A study of Mus musculus with 12 samples.

Results

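The genes described here are the 35 mouse genes of intraflagellar transport (IFT) and of the BBSome, chosen by their names from a fixed list and not by any measured value. Transcripts that carried one of these names and that matched, lay within, shared a splice junction with or overlapped a reference transcript were kept, and their reads were summed per gene. This gave 119 transcripts of the 35 genes, out of 60321 such transcripts and 24516 genes in the whole series. RNA came from the testes of 12 wild-type male C57BL/6 mice, an inbred strain, with 3 mice each at 3, 6, 12 and 18 months after birth (3M, 6M, 12M and 18M), and no mouse carried a transgene or received a treatment that the labels name. Whether mice of an age were littermates is not known.

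IFT is the traffic in both directions that builds cilia and flagella. Trains of IFT-B proteins are carried outward from the basal body by kinesin-2, and IFT-A proteins together with the dynein-2 motor bring them back. The BBSome rides on these trains as an adaptor that moves membrane proteins out of the cilium, and ARL GTPases control its recruitment and the release of lipid-anchored cargo. In the testis the pathway is best known from spermatids, where the sperm tail is assembled, and loss of several of these genes leaves mice without functional sperm tails.

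Each library held between 50924104 and 71803379 deposited reads, and 94.28% to 95.05% of them fell on the transcript classes used. Libraries of the same age correlated at 0.991 to 0.994 (Pearson, log2(CPM + 1) across genes), and no pair held the same values. Markers of spermatogonia, spermatocytes, round and elongating spermatids, Sertoli, Leydig, peritubular, macrophage and endothelial cells were all detected. The summed level of 6 round spermatid markers lay between 579 and 696 FPKM at 3M and between 760 and 769 FPKM at 18M, with 0 of 6 called by edgeR. DESeq2 called 4 of 6 rising in the slope on age (Acrv1, Izumo1, Lyzl1 and Spaca1), beside 2.51% of all genes, and 3 of 6 between 3M and 18M, beside 1.16%. The summed level of 6 Leydig cell markers lay between 967 and 1118 FPKM at 3M and between 681 and 941 FPKM at 18M. It lay between 900 and 1653.5 FPKM at 6M and between 741 and 784 FPKM at 12M. In the slope edgeR called 3 of 6 (Cyp11a1, Cyp17a1 and Lhcgr) as falling, beside 0.414% of all genes. DESeq2 called Star there as a further gene. Between 3M and 18M edgeR called 1 of 6 (Cyp17a1), beside 0.0662% of all genes, and 1 of 6 had a change above 0. The 6 markers of rete testis and efferent duct epithelium summed to between 35.3 and 46.7 FPKM at 3M. At 18M the sum lay between 38.9 and 41.6 FPKM. In the slope 0 of 5 were called, and 1, Mcidas, was too low to be tested. Most of the sum was Foxj1, at 32.2 ± 5.91 FPKM at 3M and 32.8 ± 0.866 FPKM at 18M (SD, n = 3). The sum thus rests largely on 1 gene and does not show whether this epithelium was present. The part of such shifts in the results below was not tested, and in a whole testis fewer cells of a type and less RNA per cell cannot be told apart.

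All 35 genes were expressed in every library, with 281 to 33468 reads per gene and library. Levels are given as FPKM, which is scaled by transcript length and depth and so can be compared between genes. The median of the 35 mean levels was 25.6 FPKM, beside 4.06 FPKM over the 18367 genes that passed the filter on low counts, and 34 of the 35 genes lay above that median. The 3 highest were Arl3 at 175.5 FPKM, Ift74 at 93.1 FPKM and Ift43 at 88.6 FPKM. The 3 lowest were Bbs12 at 2.30 FPKM, Ttc8 at 5.09 FPKM and Bbs10 at 5.69 FPKM.

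**Figure D1:**
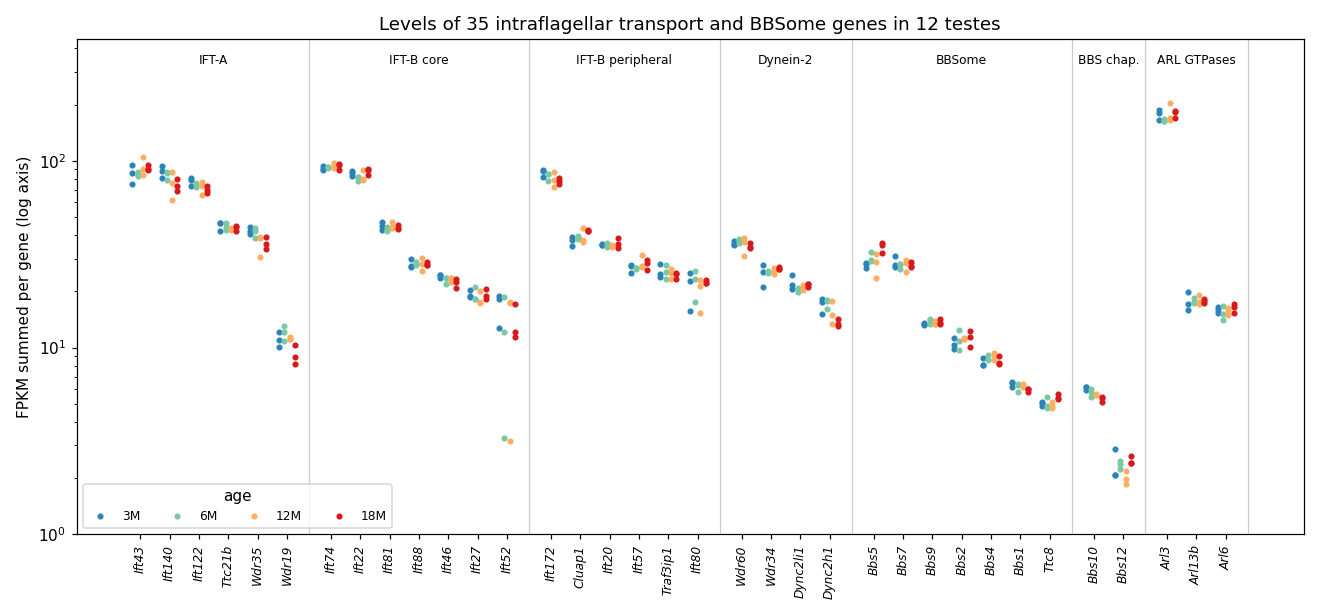
The vertical axis is FPKM per gene on a log scale, each point is 1 library colored by age, and the genes are ordered by role and level. Most genes hold their place at all ages, while Ift52 drops to 3.27 and 3.17 FPKM in 1 library at 6M and 1 at 12M.

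Cilia genes are commonly driven by RFX transcription factors, which bind a sequence called the X-box. RefSeq promoters of 300 bases (250 before and 50 after the gene start, GRCm38.p6) were at hand for 31 of the 35 genes. The X-box core GTTGCC stood on either strand in 12 of them, which is 38.7%, beside 14.1% of the 27025 genes with such a promoter. The windows of 5 genes are printed, since they cover IFT-A, IFT-B, the BBSome and an ARL GTPase, 5′ to 3′ on the strand of the gene with the core or its reverse complement in capitals. A match is a description of letters only.

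Ift140 (chr17:25015965-25015994, plus): gcgtgttgtgacGGCAACctcgcgcccttg
Ift172 (chr5:31291097-31291126, minus): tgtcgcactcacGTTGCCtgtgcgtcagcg
Ift57 (chr16:49699195-49699224, plus): gaggcgggtctgGTTGCCgtggtgaccggc
Bbs7 (chr3:36613493-36613522, minus): gaatgcgccccgGTTGCCttggaaaccggc
Arl13b (chr16:62847204-62847233, minus): acagacgctccaGTTGCCtagttaccagag

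The first question was whether any of the 35 genes changed with age. With edgeR's quasi-likelihood test and Benjamini-Hochberg adjustment over all genes tested, none passed an adjusted p-value of 0.05 in any of the 5 comparisons. For the slope on age over the 12 libraries, 0 of 35 were called, beside 0.414% of 18367 genes. Between 3M and 18M 0 of 35 were called, beside 0.0662% of 18130 genes. Between neighboring ages 0 of 35 were called at each step, beside 0.0497% of genes from 3M to 6M, 0.0606% from 6M to 12M and 0.0275% from 12M to 18M. Since so few genes of any kind were called, a count of 0 among 35 is close to the background.

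At an unadjusted p-value of 0.05, 7 of 35 genes passed in the slope on age (Cluap1 and Bbs5 up, and Ift122, Ift140, Wdr35, Dync2h1 and Bbs10 down), beside 17.5% of all genes, and 7 of 35 between 3M and 18M (the same genes with Ift172 in place of Dync2h1), beside 13.5% of all genes. With single libraries left out the count for the slope ranged from 3, without the third 18M mouse, to 9, without the third 6M or the second 12M mouse. The count between 3M and 18M ranged from 2 to 9 when single libraries were left out, being 2 without the second 18M mouse, 3 without the second 3M mouse and 4 without the third 18M mouse. From 3M to 6M 0 of 35 passed, beside 3.96% of all genes, from 6M to 12M 0 of 35 beside 8.72%, and from 12M to 18M 1 of 35 (Bbs12), beside 3.52%. DESeq2 called 1 of 35 genes in the slope (Bbs5, adjusted p = 0.041), beside 2.51% of all genes. It called 0 of 35 in the other comparisons, beside 1.16% of genes from 3M to 18M, 0.313% from 3M to 6M, 0.488% from 6M to 12M and 0.154% from 12M to 18M.

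The sizes of the changes can be bounded. Between 3M and 18M the log2 fold changes ran from -0.24 to 0.17, and their median was 0.0095, beside -0.0019 over all genes. The change was above 0 for 18 of 35 genes, beside 49.6% of all genes. The 95% intervals of all 35 lay between -0.61 and 0.45, so a change of 1 on the log2 scale lay outside the interval of every gene. The spread between mice of an age was small: the median SD of log2 CPM was 0.082 for the 35 genes, beside 0.146 over all genes, with Ift52 the widest at 0.952. The 35 genes also had higher levels (median 25.6 FPKM, beside 4.06 FPKM), and the spreads were not compared at matched levels.

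**Figure D2:**
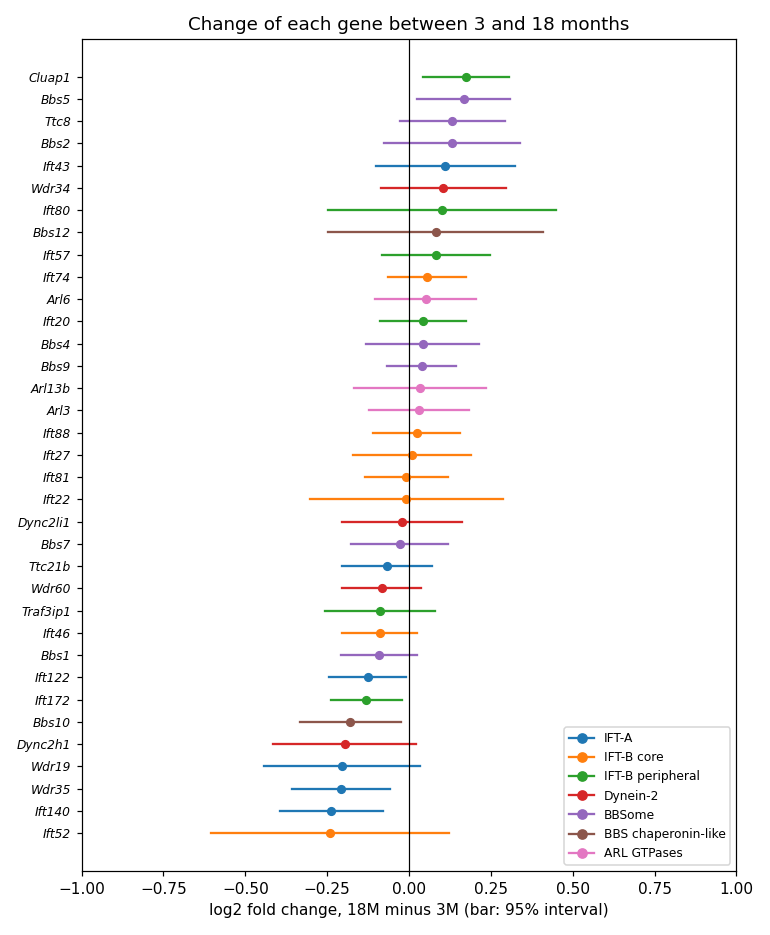
Points are log2 fold changes from 3M to 18M (18M minus 3M) and bars their 95% intervals from edgeR, colored by role, with 3 mice per age. All intervals lie within 1 of 0, and those of 7 genes leave out 0 before adjustment over all genes.

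The IFT-A complex brings trains back together with dynein-2. It was the role with the lowest median change, -0.17 on the log2 scale from 3M to 18M. Of its 6 genes, 5 had values below 0 and 1, Ift43, above 0, beside 49.6% of all genes above 0. Their summed level was 349 ± 18.2 FPKM at 3M and 325 ± 12.6 FPKM at 18M (SD, n = 3). No gene of the complex passed the adjusted test, and 3 of 6 passed before adjustment, beside 13.5% of all genes. The role was picked out after its values were seen.

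Ift140, a core subunit of IFT-A, lies on chromosome 17 from 25016086 to 25100618 (mm10). Its counts scaled to library size (CPM, TMM-normalized) were 532, 572 and 612 in the 3M mice, 574, 566 and 503 at 6M, 498, 579 and 409 at 12M and 518, 481 and 455 at 18M. Every 18M mouse lay below every 3M mouse, and the lowest value was that of the third 12M mouse. The change from 3M to 18M was -0.24 ± 0.068 (SE) on the log2 scale, with an adjusted p-value of 0.29 in edgeR.

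Wdr35, another IFT-A subunit, had 199, 206 and 219 CPM at 3M, 217, 207 and 185 at 6M, 191, 195 and 152 at 12M and 192, 178 and 168 at 18M. The 18M mice again lay below the 3M mice, and the third 12M mouse was again the lowest of the 12. The change was -0.21 ± 0.064 (SE), with an adjusted p-value of 0.30 in edgeR.

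Ift43, a small subunit at the edge of the complex, had 78.2, 67.6 and 86.7 CPM at 3M, 75.7, 76.5 and 77.6 at 6M, 82.9, 77.5 and 96.1 at 12M and 80.8, 86.9 and 82.9 at 18M. The ages overlapped, and here the third 12M mouse was the highest of the 12. The change was 0.11 ± 0.091 (SE). Of the other subunits, Ift122 had a mean level of 73.6 FPKM and a change of -0.13, Wdr19 10.8 FPKM and -0.20, and Ttc21b 44.1 FPKM and -0.068. For Ift122 the 18M mice lay below the 3M mice, while for Wdr19 and Ttc21b the ages overlapped.

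**Figure D3:**
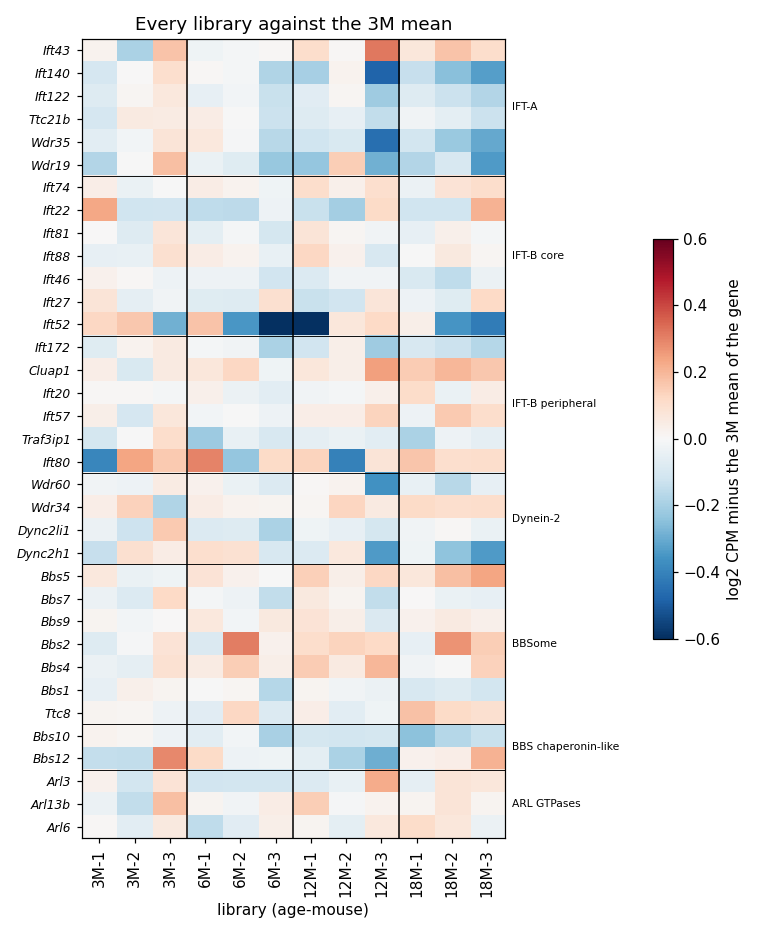
Each cell is the log2 CPM of a gene in 1 library minus the mean of its 3M libraries, with red above and blue below and the color scale ending at 0.6 in either direction. Most cells are pale, the dark blue cells of Ift52 fall in 1 library at 6M and 1 at 12M, and the third 12M mouse holds the lowest values of Ift140 and Wdr35.

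The 7 genes of the IFT-B core, the rigid part of the train, had a median change of -0.0081. Their summed level was 310 ± 6.40 FPKM at 3M and 308 ± 4.63 FPKM at 18M (SD, n = 3). None of the 7 passed even before adjustment between 3M and 18M. Ift74, which with Ift81 binds tubulin as cargo, had 228, 216 and 222 CPM at 3M, 229, 225 and 218 at 6M, 238, 227 and 238 at 12M and 217, 235 and 239 at 18M. Its 12 libraries thus lay within 216 and 239 CPM, and its change was 0.054 ± 0.051 (SE). The other levels and changes were 28.0 FPKM and 0.024 for Ift88, 44.2 FPKM and -0.0081 for Ift81, 23.2 FPKM and -0.090 for Ift46, 19.0 FPKM and 0.0095 for the GTPase Ift27, and 84.4 FPKM and -0.0089 for the GTPase Ift22. A transcript with 13.1% of the reads of Ift22 shares introns with transcripts filed under its neighbor 4933404O12Rik. Ift22 ranged from 86.5 CPM in the second 12M mouse to 117 CPM in the first 3M mouse. Loss of Ift88, the gene first tied to polycystic kidneys in the mouse, stops the assembly of cilia and of the sperm tail.

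Ift52 stood apart. It had 43.9, 45.2 and 33.0 CPM at 3M, 45.3, 31.7 and 8.35 at 6M, 8.39, 42.3 and 43.8 at 12M and 41.4, 31.6 and 30.2 at 18M. Values near 8 CPM in the third 6M mouse and the first 12M mouse were far below the other 10 libraries. The change from 3M to 18M was -0.24 ± 0.16 (SE), with an adjusted p-value of 0.51 in edgeR.

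The deposited assembly holds 3 further transcripts that begin at Ift52, share 12 introns with it and run on into the next gene, Mybl2, under whose name they are filed. In the third 6M mouse these transcripts had 3131 reads and Ift52 455, and in the first 12M mouse 3476 and 469. In the other 10 libraries they had 353 to 1714 reads and Ift52 1519 to 2565. With both added, the totals were 3586 and 3945 reads in these libraries and 2250 to 3749 in the others. By age they were 2544, 3161 and 2701 reads at 3M and 2574, 2441 and 3749 at 18M, not scaled to library size. These totals include reads on exons in Mybl2, so they are not a level of Ift52. No change from 3M to 18M was tested on them. The reads of Ift52 and of this read-through thus moved in opposite directions in both libraries, and how the authors' quantification divided shared reads was not tested.

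The 6 peripheral IFT-B genes, the outer part of the train, had a summed level of 233 ± 9.94 FPKM at 3M and 231 ± 2.08 FPKM at 18M (SD, n = 3). Cluap1 had the highest change from 3M to 18M of the 35 genes. Its values were 74.9, 68.3 and 75.6 CPM at 3M, 76.4, 79.4 and 71.5 at 6M, 76.5, 74.6 and 86.4 at 12M and 81.0, 83.7 and 81.5 at 18M. All 18M mice lay above all 3M mice, and the change was 0.17 ± 0.056 (SE), with an adjusted p-value of 0.30 in edgeR.

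A limit of Cluap1 is its neighbor Naa60. A transcript with 8.80% of the reads of Cluap1 has exons in Naa60, and it shares introns there with 7 transcripts filed under Naa60. Ift172, which acts where trains turn around at the tip of the cilium, had 81.6 FPKM and a change of -0.13. All its 18M mice lay below all its 3M mice. The others had 35.5 FPKM and 0.042 (Ift20), 27.5 FPKM and 0.081 (Ift57), 21.4 FPKM and 0.10 (Ift80), and 25.1 FPKM and -0.089 (Traf3ip1).

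The 4 measured dynein-2 genes encode the motor that drives the way back. Their summed level was 100.1 ± 1.303 FPKM at 3M and 96.8 ± 2.25 FPKM at 18M (SD, n = 3). The heavy chain Dync2h1 had 193, 227 and 219 CPM at 3M, 228, 226 and 198 at 6M, 200, 222 and 168 at 12M and 209, 180 and 168 at 18M. The ages overlapped, and the change was -0.20 ± 0.094 (SE), with an adjusted p-value of 0.40 in edgeR. Its partners had 21.3 FPKM and a change of -0.020 (the light intermediate chain Dync2li1), 25.6 FPKM and 0.10 (the intermediate chain Wdr34), and 36.0 FPKM and -0.083 (the intermediate chain Wdr60).

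The 7 BBSome genes had lower levels than most IFT genes, from 5.09 FPKM for Ttc8 to 30.2 FPKM for Bbs5. Their changes from 3M to 18M were above 0 in 5 of 7, with a median of 0.041. Their summed level was 99.7 ± 1.92 FPKM at 3M and 107.1 ± 2.99 FPKM at 18M (SD, n = 3), and the lowest 18M sum, 104.0 FPKM, lay above the highest 3M sum, 102.0 FPKM. Bbs5 made up most of that difference in FPKM, since its level was 27.7 ± 0.893 FPKM at 3M and 34.6 ± 2.38 FPKM at 18M (SD, n = 3). FPKM depends on the lengths of the transcripts that are given the reads. In CPM Bbs5 rose less, from a mean of 85.3 at 3M to 95.6 at 18M. Summed in CPM, the 7 genes overlapped between 3M and 18M.

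Bbs5, a subunit that binds phosphoinositides in membranes, had 89.2, 82.9 and 83.9 CPM at 3M, 90.2, 86.7 and 85.0 at 6M, 94.0, 87.3 and 93.1 at 12M and 89.4, 96.8 and 101 at 18M. Every 18M mouse lay above every 3M mouse, though the lowest 18M value exceeded the highest 3M value by little. The change in counts was 0.17 ± 0.061 (SE), with an adjusted p-value of 0.32 in edgeR. It was 0.32 when FPKM were tested with limma and 0.016 when only the annotated transcript was counted, so its size depended on the transcripts behind it. A limit of Bbs5 is its neighbor Klhl41. Transcripts with 50.5% and 6.13% of the reads of Bbs5 have exons in Klhl41. The values of the gene, and its call by DESeq2 in the slope, include these reads. How many of them came from the exons in Klhl41 was not tested.

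Ttc8 had 13.0, 13.0 and 12.6 CPM at 3M, 12.3, 14.0 and 12.1 at 6M, 13.2, 12.3 and 12.6 at 12M and 14.5, 13.9 and 13.7 at 18M. The 18M mice lay above the 3M mice, and the change was 0.13 ± 0.069 (SE), with an adjusted p-value of 0.43 in edgeR. The other subunits had 6.18 FPKM and -0.093 (Bbs1), 11.0 FPKM and 0.13 (Bbs2), 8.66 FPKM and 0.041 (Bbs4), 27.9 FPKM and -0.029 (Bbs7) and 13.6 FPKM and 0.038 (Bbs9). All of these changes lay between -0.093 and 0.13 on the log2 scale.

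Bbs10 and Bbs12 resemble chaperonins and help to assemble the BBSome. Bbs10 had 19.1, 19.0 and 18.5 CPM at 3M, 18.1, 18.6 and 16.5 at 6M, 17.5, 17.5 and 17.5 at 12M and 15.9, 16.8 and 17.2 at 18M. The 18M mice lay below the 3M mice, and the change was -0.18 ± 0.066 (SE), with an adjusted p-value of 0.33 in edgeR. Bbs12 had 5.69, 5.67 and 7.68 CPM at 3M, 6.80, 6.15 and 6.17 at 6M, 6.03, 5.50 and 5.12 at 12M and 6.39, 6.46 and 7.26 at 18M. The 12M mice lay below the 18M mice, while 3M and 18M overlapped, with a change of 0.082 ± 0.14 (SE).

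Arl3, the GTPase that releases lipid-anchored cargo inside the cilium, ranked 388 of 18367 genes by level. It had 167, 152 and 173 CPM at 3M, 151, 151 and 151 at 6M, 155, 159 and 191 at 12M and 158, 173 and 172 at 18M. The ages overlapped, and the change was 0.031 ± 0.065 (SE). Arl13b, which activates Arl3, had 17.8 FPKM and a change of 0.034, and Arl6, which recruits the BBSome to membranes, 15.8 FPKM and 0.050. A transcript filed under Crybg3 shares 5 introns with Arl6 and had 1451 reads over the 12 libraries.

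Over the whole set, 4 genes had all 18M mice above all 3M mice (Cluap1, Bbs5, Bbs9 and Ttc8), beside 9.47% of all genes. Another 8 had all 18M mice below all 3M mice (Ift122, Ift140, Wdr35, Ift46, Ift172, Wdr60, Bbs1 and Bbs10), beside 11.0% of all genes. Age means were higher at each step for 5 genes (Ift88, Cluap1, Wdr34, Bbs2 and Bbs5), beside 6.34% of all genes, and lower at each step for 5 (Ift122, Ift140, Wdr19, Ift172 and Bbs10), beside 7.83%. The remaining 25 did not keep 1 direction.

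The second question was which transcripts carried the reads. Of the 119 transcripts, 44 matched a RefSeq transcript and 75 were combinations of splice junctions put together by StringTie that RefSeq lacks, called new here, of which 4 have the introns of a transcript in GENCODE vM21. The new transcripts held 30.5% of the reads of the 35 genes, and over 50% of the reads of 9 genes. Without those 4 the share was 23.1%, and over 50% in 7 genes (Ttc21b, Traf3ip1, Dync2h1, Bbs2, Bbs5, Bbs9 and Arl13b). The share was 96.7% for Dync2h1 and 96.4% for Bbs5, the highest of the 35, and 96.7% and 56.6% without those 4. Counts per transcript are estimates, since the authors' tool divides reads of shared exons among transcripts.

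No transcript passed an adjusted p-value of 0.05 in edgeR. In the slope on age 0 of 100 tested transcripts were called, beside 0.00863% of all transcripts, and 3 of 100 passed before adjustment, beside 7.17%. Between 3M and 18M 0 of 96 were called, beside 0.122%, and 5 of 96 passed before adjustment, beside 5.42%. DESeq2 called 5 in the slope, beside 1.77% of all transcripts, and 4 between 3M and 18M, beside 3.54%. Among the transcripts it called were 3 at or near 0 reads in most libraries, namely MSTRG.15302.2 of Ift172 (no reads in 9 libraries), MSTRG.11434.2 of Bbs5 (no reads in 10) and the RefSeq transcript NM_198311 of Ttc8 (called in both tests). The others were NM_027914 of Bbs10, NM_029851 of Dync2h1, MSTRG.11434.1 of Bbs5, NM_029601 of Ift43 and MSTRG.15531.1 of Wdr19. NM_027914 holds all reads of Bbs10, so its counts are those of the gene, which DESeq2 did not call in the fits over genes.

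The reads of Bbs5 were split between a transcript that runs on into the next gene, Klhl41, and holds 50.5% of them, and MSTRG.11434.1, with 39.8%. MSTRG.11434.1 has the introns of Bbs5-205, which GENCODE lists as a target of nonsense-mediated decay, the pathway that removes RNAs with an early stop. It leaves out a coding exon of 128 bases, a length that shifts the reading frame. That exon lies at chr2:69654246-69654373 on the plus strand and is printed from GENCODE because the values that follow concern it.

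Bbs5, 128-base exon: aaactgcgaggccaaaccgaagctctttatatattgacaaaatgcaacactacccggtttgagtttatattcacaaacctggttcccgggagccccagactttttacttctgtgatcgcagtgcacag

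The share of Bbs5 reads on transcripts with this exon was 69.0%, 60.8% and 69.9% in the 3M mice, 52.0%, 60.7% and 58.8% at 6M, 73.9%, 84.0% and 53.9% at 12M, and 52.8%, 44.0% and 48.9% at 18M. All 18M mice lay below all 3M mice, but the 12M mice spanned a wider range than either and held the 2 highest values. These shares count reads without scaling for transcript length. MSTRG.11434.3 and MSTRG.11434.2, which hold the exon and run on into Klhl41, are 3866 and 4024 bases long. MSTRG.11434.1, which skips it, has 1915 bases. The shares are thus not shares of RNA molecules, and they include reads on exons in Klhl41. The skipping transcript had 1377, 1766 and 1381 reads at 3M and 2268, 2694 and 3468 reads at 18M, a log2 change of 0.79 ± 0.15 (SE). Its adjusted p-value was 0.49 in edgeR and 8.4e-05 in DESeq2, so the tools differed on it. Over all 12 mice its slope on age had an adjusted p-value of 0.81 in edgeR.

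**Figure D4:**
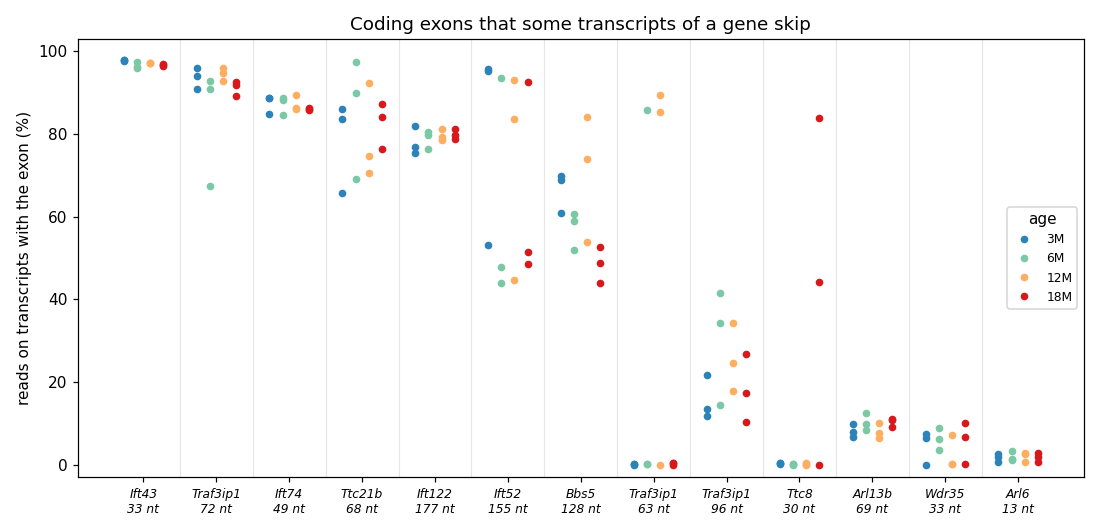
The vertical axis is the percent of reads of a gene on transcripts that hold the exon, out of those that hold or skip it, with 1 point per library colored by age. Reads are not scaled for transcript length. Bbs5 lies at 60.8% or more at 3M and at 52.8% or less at 18M, with its highest values in 2 of 3 mice at 12M, while Ttc8 is near 0 in all but 2 libraries at 18M.

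Ttc8 has an exon of 30 bases that is known from the retina, where it adds residues without a shift of frame. It lies at chr12:98937120-98937149 on the plus strand. Its share was under 0.43% in 10 libraries, but 44.1% in the first 18M mouse and 84.0% in the second, with no read in the third. The transcript with it, NM_198311, had 343 and 581 reads in those mice and 0 to 3 in the other 10, while the total of Ttc8 stayed between 12.1 and 14.5 CPM. Both mice are of 1 age and the third of that age had none, so the values do not separate the ages.

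Ttc8, 30-base exon: gaaccagctcctgatttgccagtgtctcag

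Among 27 exons that some transcripts skip, the share moved by over 50 points between libraries for exons of Ift52, Traf3ip1, Wdr60, Bbs5, Bbs9 and Ttc8. For Bbs5 this was an exon of 158 bases, at 0% to 59.4%, and not the exon of 128 bases printed above. Among the exons whose share moved by under 7 points were the following 3. Arl13b skipped an exon of 69 bases (chr16:62801722-62801790, minus) in most of its reads, with 6.33% to 12.4% of reads holding it. Ift43 held an in-frame exon of 33 bases (chr12:86138793-86138825, plus) in 96.0% to 97.8% of its reads, and Ift122 an in-frame exon of 177 bases in 75.4% to 81.8%. No age stood apart in the shares of Arl13b and Ift122, while in Ift43 the 18M mice lay at 96.5% to 96.8% and the 3M mice at 97.7% to 97.8%. The 6M mice of Ift43 lay at 96.0%, 96.2% and 97.4%, and the 12M mice at 97.1% to 97.3%. The lowest shares were thus at 6M, and the share did not fall step by step with age. NM_029601, the transcript of Ift43 that skips the exon, had a log2 change of 0.67 ± 0.20 (SE) from 3M to 18M, with an adjusted p-value of 0.87 in edgeR and 0.0059 in DESeq2. The exons of Arl13b and Ift43 are printed because the shares above concern them. No protein and no other tissue was measured.

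Arl13b, 69-base exon: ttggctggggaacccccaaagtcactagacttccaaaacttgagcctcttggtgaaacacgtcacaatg
Ift43, 33-base exon: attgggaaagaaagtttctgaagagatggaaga

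**Figure D5:**
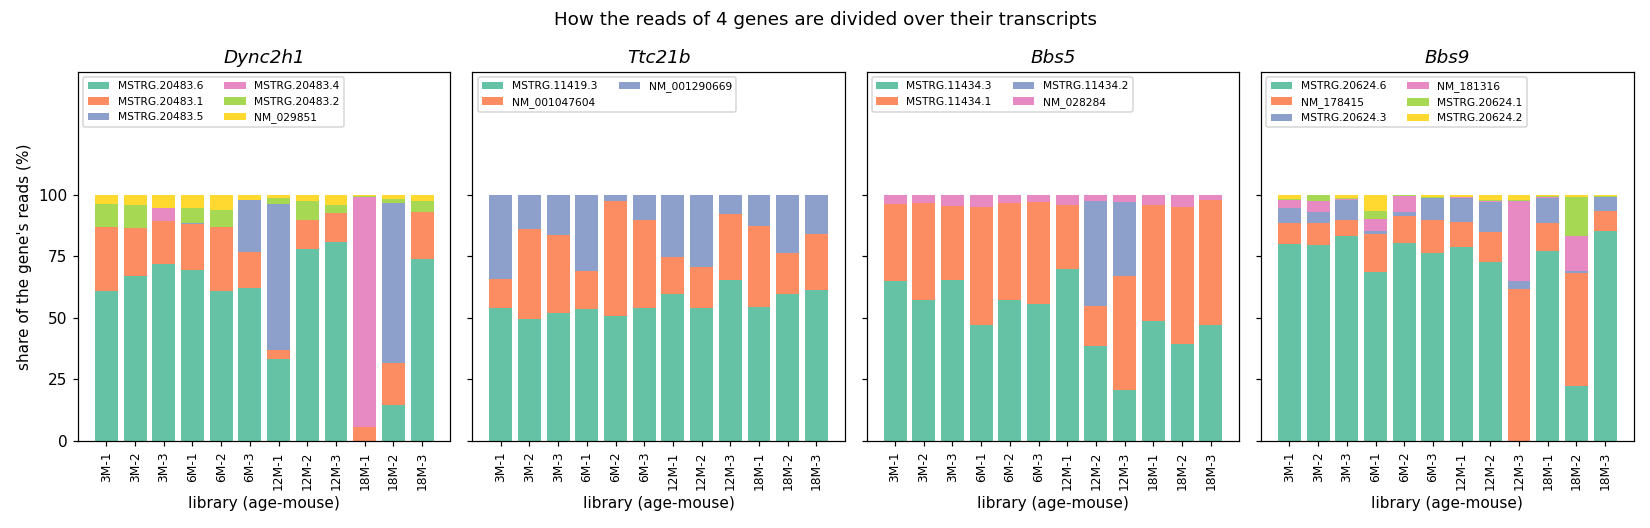
Bars are libraries and colors are transcripts, stacked to 100% of the reads of each gene. In Dync2h1 and Bbs9 a different transcript takes most of the reads in some libraries, while the main transcript of Ttc21b holds 49.6% to 65.2% in every library.

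Dync2h1 shows how far the division can move without the gene. Its main transcript, MSTRG.20483.6, has 72 exons, begins 27247 bases inside the RefSeq gene and held 56.6% of the reads. It had 0 reads in the first 18M mouse, where MSTRG.20483.4 had 10463 reads against 0 in 10 of the other libraries. In the second 18M mouse it had 1293 reads and MSTRG.20483.5 5804. The full-length RefSeq transcript, NM_029851, had 372, 494 and 664 reads at 3M and 48, 166 and 283 at 18M, a log2 change of -1.77 ± 0.61 (SE) with an adjusted p-value of 0.89 in edgeR. Its slope on age had an adjusted p-value of 0.57 in edgeR and 0.030 in DESeq2. The counts of the whole gene, between 168 and 228 CPM, did not show such jumps.

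In Ttc21b a transcript of 15 exons that begins 31692 bases inside the gene held 55.8% of the reads, between 49.6% and 65.2% in the 12 libraries. In Arl13b and Bbs9 new transcripts held 90.8% and 76.9% of the reads, and in Bbs2 73.4%. No reads of Bbs1, Bbs7, Bbs10, Bbs12, Ttc8, Arl6, Ift27, Ift43 or Wdr35 fell on new transcripts.

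The third question was how other genes of the pathway behaved. A list of 55 genes (other IFT and BBS genes, kinesin-2, dynein-2 light chains, cargo release, the transition zone, and RFX and FOXJ1 factors) had 0 called in either the slope on age or 3M against 18M with edgeR. Before adjustment 6 of 55 passed between 3M and 18M, 3 of them up, beside the 13.5% of all genes given above. The median change was 0.024, and 34 of 55 were above 0, beside 49.6% of all genes. DESeq2 called 0 of 55 in the slope and 1 of 55, Ahi1, between 3M and 18M (adjusted p = 0.018), beside 2.51% and 1.16% of all genes.

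By group, 5 of 9 other IFT and BBS genes, 3 of 5 kinesin-2 genes, 6 of 7 dynein-2 light chains, 7 of 10 cargo release genes, 9 of 19 transition zone genes and 4 of 5 RFX and FOXJ1 factors had changes above 0. The largest value below 0 was that of Invs, which marks a compartment next to the transition zone, at -1.39 ± 0.62 (SE) with an adjusted p-value of 0.38 in edgeR. Its level was 28.5 ± 21.7 FPKM at 3M and 13.6 ± 1.11 FPKM at 18M (SD, n = 3), and its range was 14.4 to 53.5 FPKM at 3M and 14.0 to 53.3 FPKM at 6M. Ahi1, a transition zone gene of Joubert syndrome, had 49.9 ± 0.833 FPKM at 3M and 41.8 ± 1.51 FPKM at 18M (SD, n = 3), a change of -0.23 ± 0.047 (SE) with an adjusted p-value of 0.25 in edgeR. Among the kinesin-2 genes Kif17 had the highest level, 113.5 FPKM, and among the RFX and FOXJ1 factors Rfx2, at 131.9 FPKM with a change of -0.14 ± 0.055 (SE).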

How the data were processed

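Total RNA of mouse testis was depleted of ribosomal RNA and sequenced as paired-end libraries without strand, so the values of genes that overlap others are uncertain. Reads were mapped by the authors to mm10 (HISAT2), and transcripts were assembled and quantified with StringTie 1.3.3b. The deposited table gives an estimated count and an FPKM per transcript and library, where the authors derived each estimated count from coverage, and the FPKM deposited by the authors are not normalized between libraries. Exons were read from the deposited assembly of 1 library and compared with GENCODE vM21 on the same build.

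Estimated counts, already whole numbers, were summed per gene and tested with edgeR 4.0.16 in R 4.3.3 (TMM, filterByExpr, quasi-likelihood F-test, Benjamini-Hochberg over all genes, 3 mice per age). Only the libraries of both ages entered a pairwise fit. DESeq2 1.42.0 and limma 3.58.1, on log2(FPKM + 0.1), were alternatives. The tests were tried on simulated counts. Python 3.11.15 served for other steps. The gene list, the related and marker lists and the tests were chosen with earlier results of these data known.

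Named with every library were the 3 genes with the highest and the 3 with the lowest change from 3M to 18M at 1 CPM or more, the 3 highest and 3 lowest by FPKM, the 2 with the largest share of reads on new transcripts, and any called gene. Exons and read-through transcripts were chosen after their values were seen. Other alternatives were the normalization, the filter, the transcript classes, unadjusted p-values, the mouse number as a block, all 12 libraries in a fit and each library left out. Per-sample columns without a sample numbered 0.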

Additional observations from a re-analysis of the deposited data

Results flagged for a closer look

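The assembly also holds 3 transcripts with the name of one of the 35 genes that were not counted, because they run antisense to the gene or lie within an intron. They are given here because their reads exceed the 3 reads that a count of 0 allows, and they enter no comparison. The intronic transcript MSTRG.20626.1 of Bbs9 (chr9:22679904-22681012, 597 bases) had 418 reads over the 12 libraries, with 20 to 57 reads in each. Its level was 0.707 ± 0.184 FPKM at 3M and 0.966 ± 0.370 FPKM at 18M (SD, n = 3). The antisense transcript MSTRG.16108.3 of Ift81 had 301 reads and the antisense transcript MSTRG.20625.1 of Bbs9 153 reads over the 12 libraries. Both had no reads in some libraries, and without strand in the libraries their direction rests on splice junctions alone.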

How the results depend on the processing

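Of 89 alternative fits for the 5 gene comparisons, 85 called 0 of the 35 genes, as the fits of the report did, and 36 of the 89 left out a library. The 4 others were DESeq2, with 1 gene called in the slope, and the unadjusted p-value, with 7 in the slope, 7 between 3M and 18M and 1 between 12M and 18M. For transcripts DESeq2 called 5 in the slope and 4 between 3M and 18M, and with single libraries left out edgeR called 0 in each. The 6 genes named for their change were chosen by it from the same counts, so a kept sign is no independent check. The change kept its sign in all 90 alternative values, but its size moved for Ift52 (-0.56 on annotated transcripts only, and from -0.39 to -0.16 with single libraries left out) and Bbs5 (0.016 to 0.32). With the mouse number as a replicate block, 0 of 35 genes were called in each comparison. The labels give each mouse a number within its age. Of 18 correlations between same-numbered mice 1 was over 0.1. Of 12 libraries 6 correlated best with their own number, with 3 numbers per age. With so few mice these values cannot decide whether a number stands for a pairing or a batch. The median change of all genes was within 0.1 of 0. TMM centers most genes near 0, so this median cannot show whether all genes shifted together. The number of mice limits the precision, as the intervals show.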
